A study of Mus musculus with 22 samples.

Results

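The genes described here encode proteins of the nuclear pore complex and the receptors that carry cargo through it. They were chosen by symbol alone, as genes whose names start with Nup, Kpna, Kpnb, Xpo or Ipo followed by a digit, together with Xpot, and 1 symbol marked -ps as a pseudogene was left out. The rule found 41 of the 55335 genes in the table. By known role they comprise 6 genes of the outer ring scaffold, 5 of the inner ring, 2 of the membrane ring, 3 of the central channel including Nup62cl by its name, 3 of the cytoplasmic side and mobile pool, 2 of the nuclear basket side, 6 importin alpha genes, 8 genes of the importin beta family and 6 exportins. No row of the table carried the symbols Nup42, Nup58 or Kpna5. Nup42 and Nup58 are in the table under their older symbols Nupl2 and Nupl1, which the rule does not match. Both are counted below among pore genes with other names.

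The study knocked down the histone variant H2A.Z in B6D2F1 mouse embryos and sequenced polyadenylated RNA by Smart-seq2. KD embryos had received about 10 pL of mixed siRNAs against H2A.Z, at 20 µM, as zygotes, and it is not stated whether the control embryos of these libraries had been injected. The 6 groups were control and KD 2-cell embryos at 44 h after hCG (4 and 3 libraries), control and KD morulae at 78 h (4 and 3 libraries) and control and KD blastocysts at 94 h (4 and 4 libraries). Each of the 22 libraries pooled 15 embryos, so every p below measures the spread between pools and not between embryos. Levels are FPKM, which scale fragments by transcript length and library size, and are listed by replicate number: 1, 2, 4 and 5 for control and 1, 2 and 4 for KD 2-cell embryos, 1, 2, 7 and 8 for control and 1, 2 and 6 for KD morulae, and 1, 4, 5 and 6 for both groups of blastocysts.

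Nuclear pore complexes are built from stacked scaffold rings around a channel that is filled with disordered repeats rich in phenylalanine and glycine. Importin alpha proteins bind the classical nuclear localisation signal and enter the nucleus with importin beta, whereas other importins and the exportins bind their cargo directly and are loaded or unloaded by Ran. Early embryos start with nucleoporin and importin transcripts from the oocyte and replace them with their own, and importin alpha genes are known for changing from maternal to embryonic forms over these stages.

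H2afz, the targeted gene, had FPKM of 1244, 1236, 905 and 1178 in control and 415, 139 and 112 in KD 2-cell embryos. Its FPKM were 1158, 1336, 1511 and 1421 in control and 30.3, 25.7 and 29.0 in KD morulae, and 2656, 2431, 1945 and 2055 in control and 64.2, 67.2, 53.2 and 57.6 in KD blastocysts. The KD libraries lay below every control library at each stage, with KD replicate 1 of the 2-cell stage the highest among them. The difference of mean log2(scaled FPKM + 1) was -2.53, -5.41 and -5.19 at the 3 stages, with an exact two-sided permutation p of 0.0286 at each, the smallest that the 35 splits of 2-cell embryos or morulae and the 70 splits of blastocysts can give. H2afv, which encodes the sister protein of H2afz, had FPKM of 111, 118, 96.8 and 113 in control and 97.6, 85.4 and 83.7 in KD 2-cell embryos. The H2afv values were 97.3, 113, 100.0 and 92.5 against 12.9, 11.01 and 9.90 in morulae and 49.9, 62.0, 54.5 and 63.5 against 19.9, 16.9, 10.6 and 13.9 in blastocysts. These groups overlapped at the 2-cell stage (difference -0.23, exact p = 0.143) and were apart in morulae (-2.93, exact p = 0.0286) and blastocysts (-1.86, exact p = 0.0286).

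The stage labels were read against marker genes. Summed FPKM of 5 oocyte and maternal genes (most abundant Oosp1) lay between 741 and 1040 in the 2-cell libraries and between 4.79 and 11.2 in the morula libraries. The sum of 4 markers of 2-cell embryos fell in the ranges 152 to 215 and 1.37 to 8.75 for the same stages. Summed FPKM of 6 cumulus or granulosa markers reached at most 0.126 in any library, those of 4 sperm markers 1.33 and those of 3 blood markers 7.77, the last almost wholly Hba-a1, while Hbb-bs stood at 0.

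Levels of the 41 genes, averaged over the 22 libraries, had a median of 12.1 FPKM. A mean of at least 10 FPKM was found for 24 genes, a mean between 1 and 10 for 13 and a mean under 1 for 4 (Ipo13, Xpo7, Nup210l and Nup210). Kpna2 stood highest at 546 FPKM, ahead of Nup43 at 129, Nup35 at 108, Nup37 at 55.0 and Ipo5 at 38.7. Nup210, which encodes a membrane protein of the pore, stayed at or under 0.324 FPKM in all 22 libraries, and its paralog Nup210l reached 1.35. The 5 leading genes together thus held members of the outer ring, the inner ring, the importin alpha genes and the importin beta family.

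The comparison of control morulae with control 2-cell embryos gives the change of these genes in embryos without the KD. The outer ring genes Nup85, Nup37 and Nup133 and the exportins Xpot and Xpo5 rose, while Ipo8, Kpna7, Kpna3, Nup62cl, Nup214, Nup98 and Nup62 fell. Of the 39 members tested by limma with Benjamini-Hochberg adjustment over all genes, 16 were higher and 15 lower at an adjusted p under 0.05. These shares, 41% and 38.5%, were near the 43% and 40.3% of all 13655 genes tested. A log2 change above 1 in size came with the call in 16 members, or 41% of them, beside 62.2% of all genes. Calls held without any 1 of the 8 libraries for 26 of the 31 members. Ipo13 and Nup210 were too low to be tested. Fold changes refer to log2(scaled FPKM + 1), which understates the ratio for genes of a few FPKM or less.

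**Figure D1:**
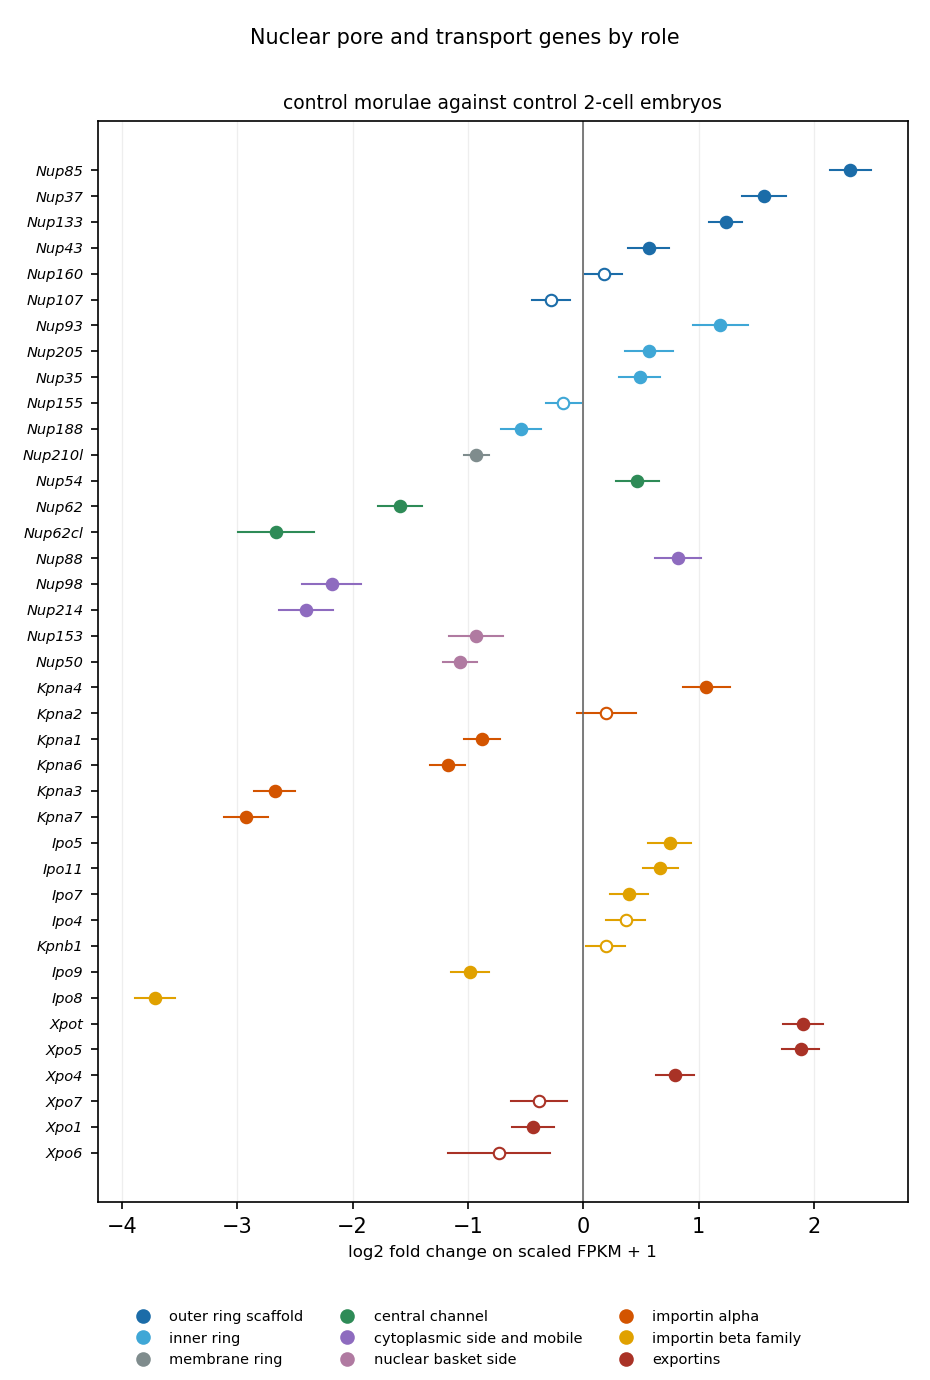
Log2 fold change on scaled FPKM + 1 (horizontal axis, points; lines are 1 SE either way) of control morulae against control 2-cell embryos, 4 libraries each, for the 39 members tested, coloured by role; filled points passed an adjusted p under 0.05. Nup85 stands at 2.31 and Ipo8 at -3.71.

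In the outer ring, the Y-shaped scaffold that also binds kinetochores in mitosis, 4 of the 6 genes that match the rule rose and none fell. The rule leaves out Seh1l, Sec13 (2.69) and Ahctf1 (-2.08) of this scaffold, which are counted below among pore genes with other names. Nup85 had FPKM of 6.00, 7.71, 11.8 and 8.75 in control 2-cell embryos, 45.4, 44.7, 41.8 and 51.0 in control morulae and 22.1, 35.8, 50.02 and 32.7 in control blastocysts. Its KD libraries held 8.44, 7.91 and 6.94, 36.6, 36.5 and 37.1 and 29.6, 36.4, 39.1 and 34.0 at the same stages. Every 2-cell library of Nup85 stood below every morula library, with a log2 fold change of 2.31 (SE 0.18, adjusted p = 1.58e-07). Nup37, a peripheral subunit of the same scaffold, had control FPKM of 24.4, 27.1, 23.9 and 26.0, then 63.3, 76.0, 86.8 and 85.8, then 90.2, 79.7, 75.2 and 72.6 over the stages. The Nup37 values of KD embryos were 23.7, 23.0 and 22.2, then 58.7, 49.3 and 66.4, then 59.7, 54.6, 48.5 and 72.3. Control 2-cell and morula values of Nup37 did not overlap, with a log2 fold change of 1.57 (SE 0.19, adjusted p = 7.59e-06), and in blastocysts each KD library lay below each control library, although this difference did not pass the test. Nup43, the most abundant pore gene, had 104, 117, 114 and 125 FPKM in control 2-cell embryos, 139.7, 186, 185 and 179 in control morulae and 121, 103, 107 and 109 in control blastocysts. In KD embryos Nup43 was measured at 112, 100.3 and 96.8 FPKM, at 161, 164 and 143 and at 128, 128, 99.4 and 108. The morula libraries were the highest of the control groups for Nup43, above the 2-cell libraries by 0.57 (SE 0.18, adjusted p = 0.0109). The Nup43 call was lost with the replicate block (0.36, adjusted p = 0.200), a fit with almost no residual freedom at this step. It was also lost within replicate numbers 1 and 2 (0.42, adjusted p = 0.172), a fit chosen after seeing the data. Nup133, a stem subunit of the scaffold, went from 2.52 to 3.15 FPKM up to 7.21 to 10.3 (1.23, SE 0.14), while Nup107 and Nup160 did not pass.

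In the inner ring, which anchors the channel to the scaffold, 3 of 5 genes rose and 1 fell. Nup35, a small membrane-binding subunit, had 90.8, 94.8, 102 and 113 FPKM in control 2-cell embryos, 118, 142, 159 and 149 in control morulae and 80.2, 81.3, 127 and 81.5 in control blastocysts. Nup35 in KD embryos had FPKM of 86.7, 88.4 and 95.2, of 127, 183 and 122 and of 93.5, 89.1, 79.2 and 84.3. Its morula controls were all above its 2-cell controls (0.49, SE 0.18, adjusted p = 0.0211), but the call was lost without control 2-cell replicate 1, 2 or 4 (adjusted p = 0.0578, 0.0527 and 0.0514), with the replicate block (0.30, adjusted p = 0.282) and within replicate numbers 1 and 2 (adjusted p = 0.203). Of the 50-base stretches of Nup35, 39.2% also occur in other genes, chiefly Gm4353, which had 24.8 to 61.2 FPKM, so its reads may be shared. Nup93, the linker at the core of this ring, went from between 5.51 and 13.4 FPKM in control 2-cell embryos to between 18.3 and 23.4 in control morulae (1.19, SE 0.24, adjusted p = 0.000549). Nup205, a large ring subunit, rose by 0.57 (SE 0.21), a call lost without control 2-cell replicate 1 or 4 or control morula replicate 1 (adjusted p = 0.0729, 0.0696 and 0.0554), with the replicate block (adjusted p = 0.253), within replicate numbers 1 and 2 (adjusted p = 0.227) and with no filter on low values (adjusted p = 0.0535). Its paralog Nup188 fell by 0.54 (SE 0.18) from 1.13 to 2.90 FPKM down to 0.663 to 1.14, with overlapping libraries, and did not pass with the replicate block (adjusted p = 0.115). Nup188 met the filter of 1 FPKM through its 2-cell libraries, as its control morulae had a median of 0.778. With a pseudocount of 0.1 its change was -0.92.

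The central channel genes went in opposite directions. Nup62cl, an X-linked gene related to Nup62, had FPKM of 105, 52.9, 71.0 and 42.6 in control 2-cell embryos, 5.57, 9.30, 10.0 and 13.9 in control morulae and 4.66, 3.73, 3.69 and 2.96 in control blastocysts. The control stages of Nup62cl did not overlap, and the fall between the earlier stages was -2.66 (SE 0.33, adjusted p = 1.07e-05). Nup62, which encodes the main phenylalanine-glycine protein of the channel, had 35.9, 35.8, 30.3 and 26.6 FPKM in control 2-cell embryos, 14.1, 9.67, 7.59 and 9.37 in control morulae and 4.61, 1.72, 9.33 and 1.31 in control blastocysts. Its 2-cell libraries were all above its morula libraries (-1.59, SE 0.19, adjusted p = 7.45e-06), while its blastocyst libraries spread widely and replicate 5 reached into the morula range. Nup54, whose protein pairs with Nup62, rose from 18.1 to 35.7 FPKM up to 35.7 to 40.0 (0.47, SE 0.18, adjusted p = 0.0318), a call lost without control 2-cell replicate 1 (0.28, adjusted p = 0.134), control 2-cell replicate 2 (adjusted p = 0.0853) or control morula replicate 8 (adjusted p = 0.0567), with no filter on low values (adjusted p = 0.0547) and within replicate numbers above 2 (adjusted p = 0.1097).

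On the cytoplasmic side, Nup214 and Nup98 fell and Nup88 rose. Nup214, part of the filaments at which messenger RNA leaves the pore, had FPKM of 55.7, 34.5, 27.8 and 36.4 in control 2-cell embryos, 5.78, 6.36, 6.95 and 5.95 in control morulae and 2.57, 3.23, 2.92 and 4.04 in control blastocysts. Each later control stage of Nup214 was wholly below the stage before it, with a change of -2.41 (SE 0.23, adjusted p = 1.20e-06) at the earlier step. Nup98, a mobile phenylalanine-glycine protein, had 36.7, 39.9, 21.0 and 25.1 FPKM in control 2-cell embryos, 4.55, 5.77, 6.69 and 6.23 in control morulae and 2.73, 4.21, 3.37 and 3.43 in control blastocysts. The KD libraries of Nup98 were at 49.5, 39.7 and 44.2, at 8.70, 8.56 and 7.62 and at 5.82, 3.88, 6.73 and 3.70 FPKM. Nup98 also stepped down without overlap between the control stages (-2.18, SE 0.26, adjusted p = 6.81e-06). Its KD morulae lay above its control morulae, a difference that did not pass without a term for the replicate number. The difference passed with a term for the range of replicate numbers (adjusted p = 0.0376). It also passed with the replicate block (adjusted p = 0.0224), a fit with almost no residual freedom. Nup88, the partner of Nup214, went the other way, from 12.8 to 23.4 FPKM up to 26.7 to 35.2 (0.82, SE 0.20, adjusted p = 0.00237). The basket-side genes Nup50 (-1.07, SE 0.15) and Nup153 (-0.93, SE 0.23), which help release import cargo, fell. Nup210l of the membrane ring went from 1.16 to 1.35 FPKM down to 0.107 to 0.249 (-0.93, SE 0.11), and it was tested at all because its 2-cell libraries reached 1 FPKM. The change of Nup210l was -2.30 with a pseudocount of 0.1.

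Among the importin alpha genes, 1 of 6 rose from the 2-cell stage to the morula and 4 fell. Kpna7, the importin alpha known from oocytes and early embryos, had FPKM of 5.42, 5.06, 12.03 and 7.15 in control and 5.79, 6.82 and 6.74 in KD 2-cell embryos. Later values of Kpna7 were 0.0283, 0.0423, 0.0309 and 0.0206 in control morulae, 0.0364, 0.0251 and 0 in KD morulae, 0.0783, 0.0199, 0.0392 and 0.0160 in control blastocysts and 0, 0.0350, 0.00532 and 0.0515 in KD blastocysts. All 2-cell libraries held several FPKM of Kpna7 and no later library reached 0.1. Kpna7 was above the filter through its 2-cell libraries alone, and the size of its fitted change, -2.92 (SE 0.19, adjusted p = 4.12e-08), depends on the pseudocount and was -5.73 with a pseudocount of 0.1.

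Kpna3, which encodes a receptor for classical signals, had 84.7, 77.8, 66.6 and 71.4 FPKM in control 2-cell embryos, 13.5, 12.5, 8.58 and 9.74 in control morulae and 11.8, 13.8, 15.2 and 13.2 in control blastocysts. Its KD libraries read 77.8, 77.4 and 80.9, 13.5, 11.3 and 11.2 and 11.3, 10.4, 16.0 and 14.6 FPKM. The 2-cell libraries of Kpna3 stood far above all later ones (-2.68, SE 0.18, adjusted p = 4.40e-08). Kpna4, the closest relative of Kpna3 and a known carrier of Rcc1, had control FPKM of 6.76, 7.87, 4.24 and 6.73, then 18.4, 13.7, 14.4 and 11.6, then 15.2, 15.9, 12.4 and 15.1. In KD embryos Kpna4 had 6.32, 8.98 and 7.88, then 13.3, 14.4 and 14.6, then 12.5, 10.48, 17.3 and 14.7 FPKM. Kpna4 was the importin alpha gene that rose (1.07, SE 0.21, adjusted p = 0.000409), with no overlap of control 2-cell embryos and morulae, so that Kpna3 and Kpna4, far apart in FPKM at the 2-cell stage, had overlapping FPKM in control blastocysts.

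Kpna1 had 48.4, 50.3, 42.6 and 51.0 FPKM in control 2-cell embryos, 27.3, 25.3, 23.6 and 27.0 in control morulae and 10.54, 17.0, 20.2 and 14.9 in control blastocysts. Kpna1 in KD embryos was at 51.0, 43.3 and 35.3 FPKM, 30.6, 28.9 and 38.6 and 11.2, 24.1, 29.0 and 28.5. Its KD morulae lay above its control morulae and passed only with a term for the range of replicate numbers (adjusted p = 0.0371). The control stages of Kpna1 stepped down without overlap, by -0.88 (SE 0.16, adjusted p = 0.000236) and then -0.80 (SE 0.17, adjusted p = 0.00141). Kpna6, which mouse oocytes are known to supply for the first cleavages, had control FPKM of 4.28, 4.33, 6.00 and 3.82, of 1.81, 1.31, 1.54 and 1.195 and of 1.38, 2.41, 2.66 and 2.62 over the stages. Its KD values were 3.96, 5.54 and 3.16, 0.676, 0.774 and 0.669 and 1.48, 1.71, 3.95 and 1.19. Kpna6 was lower in all control morulae than in all control 2-cell embryos (-1.18, SE 0.15, adjusted p = 1.41e-05), and its 3 KD morulae lay below its control morulae without passing the test.

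Kpna2, the importin alpha of rapidly dividing cells, had FPKM of 398, 419.7, 802 and 761 in control 2-cell embryos, 525, 575, 716 and 838 in control morulae and 389, 512, 447 and 375 in control blastocysts. Its KD libraries had 397, 405 and 575, 553, 611 and 818 and 515, 521, 321 and 538 FPKM. Control 2-cell replicates 4 and 5 held much more Kpna2 than replicates 1 and 2, within the range of the morulae, and Kpna2 did not pass between these stages. It then fell from morulae to blastocysts by 0.70 on the log2 scale (SE 0.20, adjusted p = 0.0106), with every blastocyst control below every morula control. Kpna2 alone made up between 29.3% and 49.8% of the summed FPKM of the 41 genes. Of its 50-base stretches, 62.6% also occur in transcripts of other genes, chiefly Gm10184, so the reads behind its level may be shared with these copies.

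**Figure D2:**
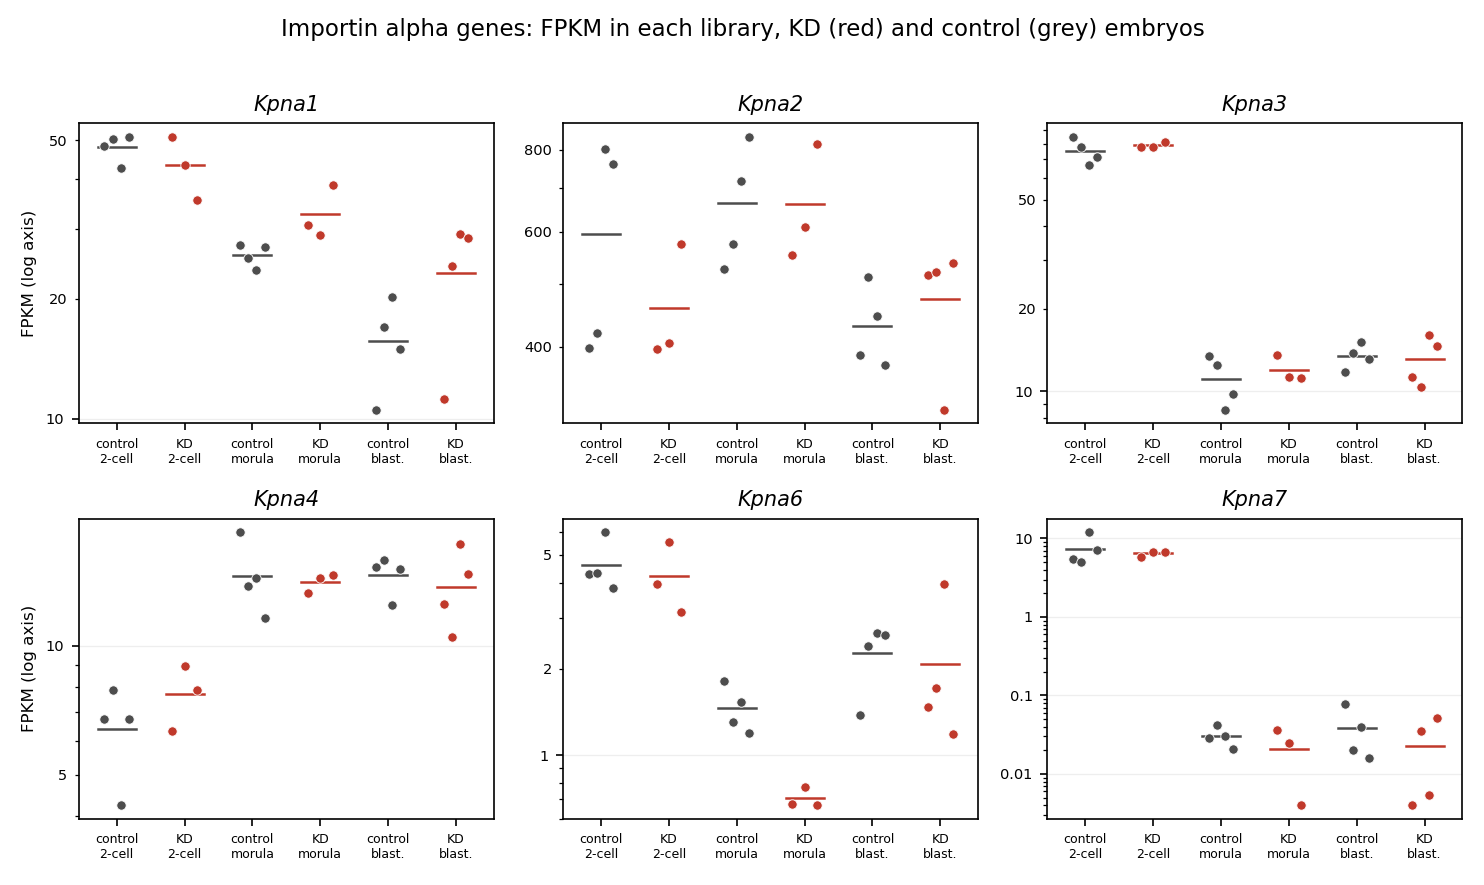
FPKM (log axis) of the 6 importin alpha genes in each library, in 6 groups; points are libraries, lines are group means, and libraries at 0 FPKM are drawn at the bottom of the axis. Kpna7 lies at 5.06 FPKM or more at the 2-cell stage and at 0.0783 or less afterwards, and Kpna3 and Kpna4 meet after the 2-cell stage.

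In the importin beta family, 3 of 7 genes tested rose from the 2-cell stage to the morula and 2 fell. Ipo8, a carrier of Smad and Argonaute proteins, had FPKM of 32.5, 34.4, 30.9 and 28.6 in control and 37.7, 23.6 and 27.1 in KD 2-cell embryos. Ipo8 then had 2.32, 1.07, 1.23 and 1.43 FPKM in control morulae, 0.561, 1.58 and 0.699 in KD morulae, 0.871, 1.25, 1.98 and 1.02 in control blastocysts and 0.476, 0.477, 0.848 and 0.867 in KD blastocysts. No library after the 2-cell stage came near the 2-cell values of Ipo8, and its change was -3.71 (SE 0.17, adjusted p = 2.67e-09). Ipo5, a carrier of ribosomal proteins and histones, had 22.8, 33.4, 30.4 and 38.8 FPKM in control 2-cell embryos, 67.2, 41.3, 50.7 and 54.6 in control morulae and 14.5, 19.1, 23.1 and 19.2 in control blastocysts. Its control morulae were above its control 2-cell embryos (0.75, SE 0.18, adjusted p = 0.00240), and its control blastocysts were below all control morulae and, but for replicate 5, below all control 2-cell embryos. Ipo11, which carries ubiquitin-conjugating enzymes, had 8.37, 10.0, 13.5 and 10.49 FPKM in control 2-cell embryos, 21.0, 18.0, 15.7 and 15.0 in control morulae and 5.20, 7.67, 9.66 and 7.35 in control blastocysts. Ipo11 also had its highest control values in morulae, with a gain from the 2-cell stage of 0.67 (SE 0.15, adjusted p = 0.00138). Ipo4, a carrier of histones H3 and H4, had 5.85, 5.02, 7.48 and 8.55 FPKM in control 2-cell embryos, 10.6, 8.21, 7.45 and 9.38 in control morulae and 2.24, 3.92, 4.74 and 4.38 in control blastocysts, and its rise to the morula did not pass (adjusted p = 0.0605). Ipo9, known as a chaperone and carrier of histones H2A and H2B, fell from 5.05 to 6.75 FPKM down to 1.92 to 3.82 (-0.98, SE 0.17, adjusted p = 0.000136). Ipo7 rose by 0.40 (SE 0.17), a call lost without control 2-cell replicate 1, 4 or 5 or control morula replicate 1 or 2 (adjusted p between 0.0609 and 0.110), with FPKM as deposited (adjusted p = 0.0526) and within replicate numbers above 2 (adjusted p = 0.164). Kpnb1, the partner of importin alpha, had between 13.4 and 23.5 FPKM in these 8 libraries and did not pass.

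The exportins rose in 3 of 6 cases and fell in 1. Xpot, the exporter of transfer RNA, had FPKM of 2.99, 4.52, 3.77 and 5.55 in control 2-cell embryos, 23.0, 17.3, 18.1 and 15.6 in control morulae and 8.36, 10.6, 10.9 and 10.3 in control blastocysts. Xpot was higher in every control morula library than in any control 2-cell library (1.90, SE 0.17, adjusted p = 7.23e-07) and in between in blastocysts. Xpo5, the exporter of microRNA precursors, went from 1.78 to 2.79 FPKM up to 9.23 to 14.8 (1.88, SE 0.16, adjusted p = 4.22e-07), and Xpo4 rose by 0.80 (SE 0.16, adjusted p = 0.000622). Xpo1, the exporter of proteins with leucine-rich signals, fell by 0.44 (SE 0.18), and the call was lost without control 2-cell replicate 1, 2 or 5 or control morula replicate 1, 2 or 8 (adjusted p between 0.0670 and 0.190), with no filter on low values (adjusted p = 0.0710) and within replicate numbers above 2 (-0.09, adjusted p = 0.719). Xpo6, the exporter of actin, had 16.2, 5.08, 4.70 and 2.45 FPKM in control 2-cell embryos, 6.42, 1.71, 2.50 and 2.98 in control morulae and 0.929, 1.52, 1.60 and 1.79 in control blastocysts. The Xpo6 values of the earlier stages overlapped and did not pass, with replicate 1 the highest at both.

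From control morulae to control blastocysts, no member rose and 24 of 36 members fell, among them Ipo5, Nup62, Ipo11, Nup62cl and Ipo4 by more than 1 log2 unit. These counts are 0% higher and 66.7% lower, beside 27.6% higher and 28.8% lower among all 11849 genes tested by limma, and 25 of 36 members had an unadjusted p under 0.05 in either direction, as did 7253 of 11849 genes. The median log2 fold change was -0.66 for the members and -0.02 for all genes. A log2 change above 1 in size came with the call in 5 members, 13.9% beside 26.2% of all genes. In bulk embryos, fewer cells of a type and less RNA per cell cannot be told apart, and blastocysts hold trophectoderm and inner cell mass in proportions these data do not give. Sums of the 6 trophectoderm markers were 107 to 145 FPKM in control morulae and 982 to 1469 in control blastocysts. Of the 6 genes, 4 were higher (Krt18 by 3.57, Krt8 by 3.50 and Elf5 by 1.33 among them), Tfap2c was lower (-1.41) and Cdx2 did not pass. Pou5f1 (-1.24) was lower and Sox2 (1.21) higher in the inner cell mass list, where Gata6 and Nanog did not pass. Zp3 (-1.24) and Oosp1 (-0.90) of the maternal list and Tdpoz4 (-1.07) of the 2-cell list were lower. Elf5 and Sox2 reached the filter of 1 FPKM in blastocysts alone, and Oosp1 and Tdpoz4 in morulae alone. The part of these markers in the falls of pore and transport genes was not tested. With FPKM as deposited, Nup85 (adjusted p = 0.108), Nup153 (0.0788), Xpo4 (0.0699), Nup155 (0.0975) and Nup54 (0.159) did not pass, and with no filter on low values Nup85 (0.104), Nup54 (0.0549), Nup62 and Xpo6 did not. Calls held without any 1 of the 8 libraries for 19 of the 24 members, while 1 member was higher without control morula replicate 1 and 2 were without control blastocyst replicate 1. The control morulae are shared with the comparison of 2-cell embryos and morulae.

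In the importin beta family, 4 of 7 genes tested fell at that step. Ipo5, with 41.3 to 67.2 FPKM in control morulae and 14.5 to 23.1 in control blastocysts, fell by 1.53 (SE 0.16, adjusted p = 9.74e-06), Ipo11 by 1.22 (SE 0.16, adjusted p = 5.34e-05) and Ipo4 by 1.14 (SE 0.18, adjusted p = 0.000207). Their blastocyst libraries lay below all morula libraries. Ipo7 fell by 0.96 (SE 0.18, adjusted p = 0.000683). All 5 exportins tested fell, with Xpot at -0.89, Xpo6 at -0.80, Xpo5 at -0.74, Xpo1 at -0.72 and Xpo4 at -0.47, although Xpo4 lost its call without control morula replicate 1 or control blastocyst replicate 5 or 6 (adjusted p = 0.0610, 0.0678 and 0.0877). Xpo6 overlapped between the stages and did not pass with no filter on low values (adjusted p = 0.0671). Of the importin alpha genes, Kpna1 and Kpna2 fell and the other 3 tested did not pass.

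Among pore genes at the same step, all 3 channel genes that match the rule fell. Nup62 changed by -1.39 (SE 0.39, adjusted p = 0.00960) with overlapping libraries, since control blastocyst replicate 5 stood at 9.33 FPKM, and did not pass with no filter on low values (adjusted p = 0.0673). Nup62cl changed by -1.19 (SE 0.27, adjusted p = 0.00258) without overlap. Nup54 changed by -0.37, a call lost without control morula replicate 2, 7 or 8 or control blastocyst replicate 1, 4 or 6 (adjusted p between 0.0713 and 0.118). On the cytoplasmic side Nup214 fell by 0.87 (SE 0.16, adjusted p = 0.000593) and Nup98 by 0.69 (SE 0.18, adjusted p = 0.00558), and Nup88 did not pass. In the outer ring 4 of 6 genes fell, Nup43 by 0.72, Nup133 by 0.70, Nup160 by 0.63 and Nup85 by 0.51, of which Nup85 lost its call without control morula replicate 2, 7 or 8 or control blastocyst replicate 1, 4 or 6 (adjusted p between 0.0558 and 0.108). The inner ring genes Nup205 (-0.73), Nup35 (-0.72) and Nup155 (-0.42) fell, and Nup155 lost its call without control morula replicate 1, 2 or 7 or control blastocyst replicate 1 or 4 (adjusted p between 0.0525 and 0.1002). Nup153 of the basket side fell by 0.47, and not without control morula replicate 1 or 2 or control blastocyst replicate 4 or 6 (adjusted p between 0.0582 and 0.0669).

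In 2-cell embryos the KD was compared with controls 44 h after hCG. None of the 39 members tested by limma passed in either direction, beside 0% of all 12160 genes higher, 0% lower and 0% past a log2 change of 1. The same fit did not call the targeted gene H2afz either (-2.53, SE 0.38, adjusted p = 0.543, the lowest of all genes), so a count of 0 says little about the members. An unadjusted p under 0.05 was found for 2 members, Nup93 and Nup98, and for 701 genes of the table. These names were chosen after their values were seen. Nup93 had 5.91, 5.51, 13.4 and 12.6 FPKM in control and 5.92, 3.10 and 2.74 in KD 2-cell embryos, with KD replicates 2 and 4 below all controls, and Nup98 had 21.0 to 39.9 against 39.7 to 49.5. Nup62cl had 91.5, 81.2 and 96.5 FPKM in KD 2-cell embryos, within the range of its controls. Ipo5 in KD 2-cell embryos was at 28.4, 29.2 and 30.8 FPKM, Nup214 at 57.9, 54.5 and 35.9, Nup62 at 26.6, 35.9 and 28.4 and Xpo6 at 4.23, 6.64 and 4.15. Each of these overlapped its controls.

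In morulae, Nup62cl was the member that passed in the KD in the fit without a term for the replicate number. Its FPKM were 25.4, 31.6 and 28.03 in the KD libraries against 5.57, 9.30, 10.0 and 13.9 in the controls. Every KD morula held more Nup62cl than every control morula, and the log2 fold change was 1.62 (SE 0.28, n = 3 against 4, limma adjusted p = 0.00713). The call held without any 1 of the 7 libraries, with a highest adjusted p of 0.0335, and was lost when no filter on low values was used (adjusted p = 0.0685). Of the 35 members tested, 1 was higher and 0 were lower, or 2.86% and 0%, beside 4.23% and 9.04% of all 10989 genes, and 7 members had an unadjusted p under 0.05, as did 3352 of all genes. With a log2 change above 1 in size there was again 1 member, 2.86% beside 3.52% of all genes. With FPKM as deposited the split became 1 higher and 2 lower, and that scaling moved the median log2 fold change of all genes by -0.10. Without control morula replicate 1, 1 member was lower. With the replicate block 2 members were higher, Nup62cl and Nup98 (adjusted p = 0.0224), and with a term for the range of replicate numbers 3 were, Nup62cl, Nup98 (adjusted p = 0.0376) and Kpna1 (adjusted p = 0.0371). In the replicate block only numbers 1 and 2 hold both KD and control morulae, so these libraries alone carry its KD effects. That fit has almost no residual freedom, and its p lean on spread borrowed from other genes. Nup62cl had an adjusted p of 2.75e-13 in it.

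In the fit without such a term the other members did not pass between KD and control morulae. Among those tested, the KD FPKM of Nup85, Nup133, Nup88, Nup107, Nup54, Nup50 and Kpna6 lay wholly below the controls. Those of Nup98, Kpna1 and Nup160 lay wholly above. These ranges are of FPKM as deposited, on which the median log2 fold change of all genes was -0.085. The share of all genes with ranges apart was not counted, so these names are not a result about the members. Ipo5 in KD morulae was at 59.2, 49.1 and 64.6 FPKM, Nup62 at 8.23, 9.18 and 10.6, Nup214 at 6.82, 5.91 and 5.47 and Xpo6 at 4.51, 4.16 and 2.66, each overlapping the control morulae. Xpot had 18.0, 18.1 and 16.1 FPKM there, Ipo11 16.8, 17.9 and 14.7 and Ipo4 9.70, 9.12 and 7.65. Sums over 5 inner cell mass markers were between 40.7 and 59.5 FPKM in KD and between 140.1 and 174 in control morulae, mostly through Nanog (-2.23, adjusted p = 0.00647), the 1 of 3 genes tested in that list that passed, while Gata6 and Pou5f1 did not. Hba-a1 of the blood list was higher (1.197, adjusted p = 0.0172), at 4.23 to 7.77 FPKM in KD and 1.16 to 3.63 in control morulae. Sums of the 2-cell markers were 4.08 to 8.75 FPKM in KD and 1.37 to 5.83 in control morulae, and 0 of 2 genes tested passed by limma. Whether any of this has a part in the Nup62cl result was not tested.

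In blastocysts, Nup62cl, Ipo5, Nup214, Nup62 and Xpo6 rose in the KD by more than 1 log2 unit, and Ipo4, Ipo11, Ipo7 and Xpot rose by less. The study reported that far fewer KD than control embryos formed blastocysts, so the KD libraries may hold a selected part of the KD embryos. Whether this has a part in the changes was not tested. Of the 37 members tested, 9 were higher and 0 lower by limma, or 24.3% and 0%, beside 16.7% and 19.8% of all 11828 genes. The 5 genes above 1 log2 unit are 13.5% of the members beside 13.7% of all genes, and 14 of 37 members had an unadjusted p under 0.05, as did 5439 of 11828 genes. The median log2 fold change was 0.20 for the members and 0.00 for all genes. With FPKM as deposited the split was 6 higher and 1 lower, and Nup62 (adjusted p = 0.0516), Ipo7 (0.0745) and Xpot (0.0974) did not pass. With no filter on low values 4 members were higher, and Xpo6, Nup214, Ipo4, Xpot, Ipo7 and Nup62 were not among them (adjusted p between 0.0635 and 0.187). The count higher was 5 without control replicate 1, without KD replicate 5 or without KD replicate 6, and the count above 1 log2 unit was 3 without KD replicate 5 or KD replicate 6. Calls of Nup62cl, Ipo5, Nup214 and Ipo11 held without any 1 of the 8 libraries. The control blastocysts are shared with the comparison of control blastocysts and morulae, in which the same 9 genes also passed, so values that are low in these controls enter both.

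**Figure D3:**
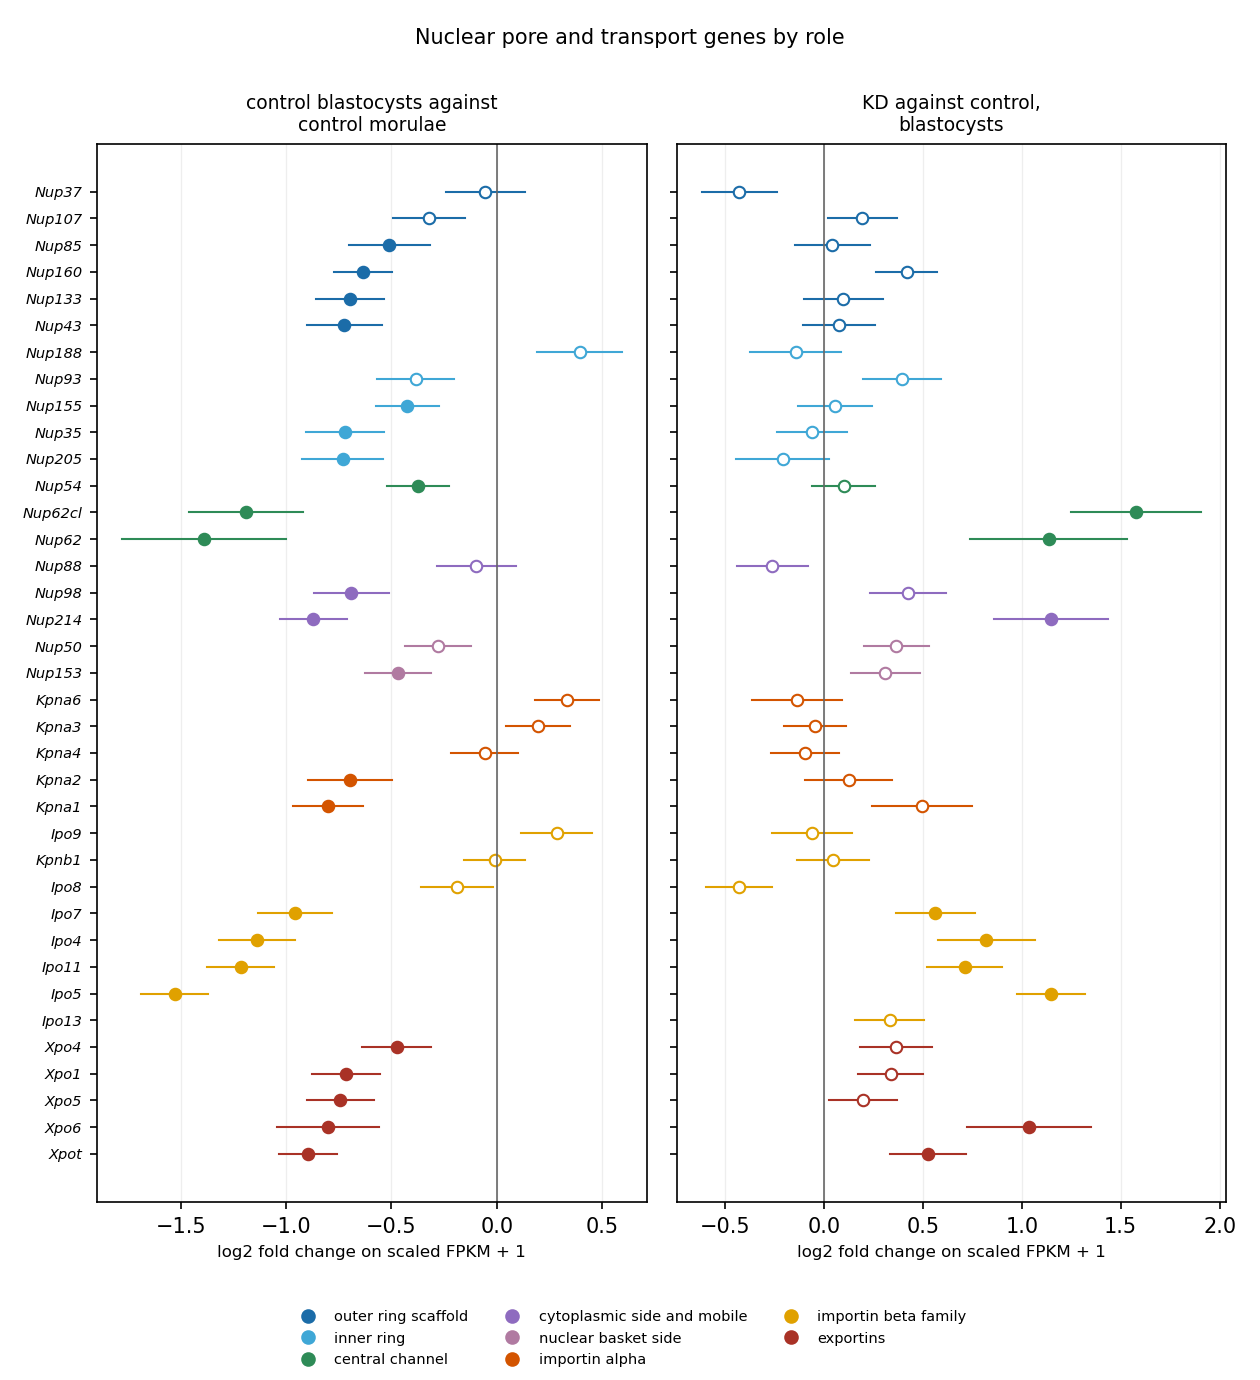
Log2 fold change on scaled FPKM + 1 (horizontal axes, points; lines are 1 SE either way) of control blastocysts against control morulae and of KD against control blastocysts, 4 libraries a group, for the members tested; filled points passed an adjusted p under 0.05. Both panels use the same 4 control blastocyst libraries, and Ipo5 stands at -1.53 and 1.15.

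Ipo5 had FPKM of 39.8, 33.6, 61.5 and 39.6 in KD blastocysts against 14.5, 19.1, 23.1 and 19.2 in controls. All KD libraries lay above all controls, and 3 of the 4 lay below the control morulae. The log2 fold change was 1.15 (SE 0.17, n = 4 against 4, adjusted p = 0.000420), with a highest adjusted p of 0.00209 when any 1 library was left out. The gene (ENSMUSG00000030662.10) spans chr14:120911224-120947999 on the plus strand of GRCm38. Ipo11 had 13.6, 8.88, 16.1 and 12.7 FPKM in KD and 5.20, 7.67, 9.66 and 7.35 in control blastocysts, with KD replicate 4 inside the control range (0.71, SE 0.19, adjusted p = 0.0116). Ipo4 had 7.01, 5.86, 13.4 and 4.96 FPKM in KD blastocysts, all above the controls of 2.24, 3.92, 4.74 and 4.38, and KD replicate 5 was highest. Its log2 fold change of 0.82 (SE 0.25, adjusted p = 0.0205) did not pass without control replicate 1 (adjusted p = 0.0587). In Ipo4, 51.6% of the 50-base stretches are shared with Gm49378, a gene on the same strand that overlaps 55.3% of its exon bases and had 3.02 to 8.86 FPKM in KD and 2.99 to 5.54 in control blastocysts, overlapping. Ipo7 rose by 0.56 (SE 0.20, adjusted p = 0.0433), which was lost without control replicate 1, 4 or 5 or KD replicate 4, 5 or 6 (adjusted p between 0.0587 and 0.139). Kpnb1, Ipo8, Ipo9 and Ipo13 did not pass.

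Nup62cl had FPKM of 21.7, 14.8, 6.199 and 14.2 in KD blastocysts against 4.66, 3.73, 3.69 and 2.96 in controls. KD replicate 5 was the lowest of the KD libraries and still above the controls. The log2 fold change was 1.58 (SE 0.33, adjusted p = 0.00300), and at most the adjusted p was 0.00983 with any 1 library left out. The gene (ENSMUSG00000072944.11) lies on the minus strand at chrX:140006805-140062712, and no 50-base stretch of it occurs in another gene. Nup62 had 6.70, 6.59, 14.04 and 8.73 FPKM in KD and 4.61, 1.72, 9.33 and 1.31 in control blastocysts, where control replicate 5 stood above 3 of the 4 KD libraries. Its change of 1.13 (SE 0.40, adjusted p = 0.0406) was lost without control replicate 4 or 6 or KD replicate 1, 5 or 6 (adjusted p = 0.123, 0.116, 0.0584, 0.114 and 0.0745). The channel gene Nup54 had 28.6 to 35.9 FPKM in KD and 22.4 to 38.1 in control blastocysts and did not pass.

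Nup214 had FPKM of 4.45, 14.9, 10.9 and 5.90 in KD blastocysts against 2.57, 3.23, 2.92 and 4.04 in controls. The KD libraries were all above the controls and spread more widely, with replicates 4 and 5 highest. Its log2 fold change was 1.15 (SE 0.29, adjusted p = 0.00874), with a highest adjusted p of 0.0276 without any 1 library, and it did not pass with no filter on low values (adjusted p = 0.0635). The gene (ENSMUSG00000001855.15) is on the plus strand at chr2:31974436-32053975. Nup98 and Nup88, the other genes of that side, did not pass. Xpo6 had 1.85, 2.18, 7.01 and 7.63 FPKM in KD and 0.929, 1.52, 1.60 and 1.79 in control blastocysts, all KD values above the controls and replicates 5 and 6 far above. The Xpo6 change of 1.04 (SE 0.31, adjusted p = 0.0218) was lost without control replicate 1 or KD replicate 5 or 6 (adjusted p = 0.0558, 0.0666 and 0.0599). Xpot had 12.1, 10.7, 23.7 and 15.3 FPKM in KD and 8.36, 10.6, 10.9 and 10.3 in control blastocysts, overlapping, and its change of 0.52 (SE 0.19, adjusted p = 0.0498) was lost without control replicate 1, 4, 5 or 6 or KD replicate 1, 5 or 6 (adjusted p between 0.0530 and 0.112). In the scaffold rings 0 of 6 outer and 0 of 5 inner ring genes passed by limma, and 0 of 5 importin alpha genes did.

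**Figure D4:**
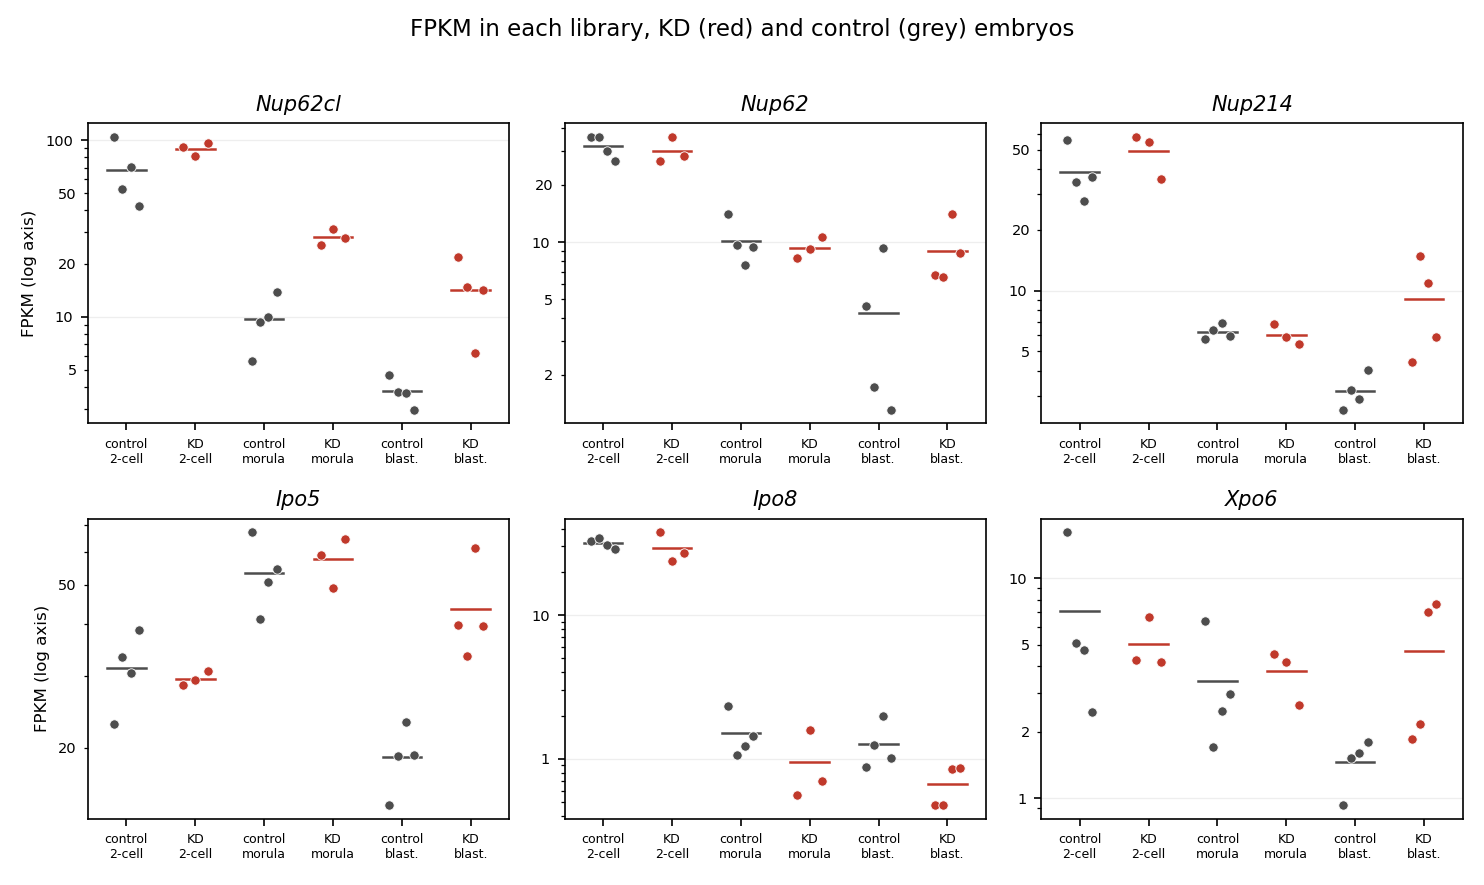
FPKM (log axes) in each library of the 6 groups for 6 members; points are libraries and lines are group means. Nup62cl is higher in KD than control morulae and blastocysts, Ipo5 is higher in all KD than all control blastocysts, and Ipo8 is at 2.32 FPKM or less after the 2-cell stage.

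KD blastocyst replicate 5 stood apart in these genes. It had the highest FPKM of the 4 KD blastocysts for 26 of 36 members (72.2%), beside 40% of 11148 genes, but the lowest Kpna2, at 321 FPKM or 29.3% of the summed members. Without this library Nup62cl, Ipo5, Nup214, Ipo11 and Ipo4 still passed. Markers of the trophectoderm also moved: sums over 6 genes were 991, 1469, 1304 and 982 FPKM in control and 581, 737, 774 and 597 in KD blastocysts, with Krt18 the most abundant. Krt18 (-1.02) and Elf5 (-1.23) were lower and Tfap2c (0.96) higher among the 6 genes tested, none was at 0, and Elf5 reached 1 FPKM in control libraries alone. Sums over 5 inner cell mass genes were 118, 142, 228 and 151 FPKM in control and 147, 159.9, 310.2 and 214 in KD blastocysts, with Nanog the most abundant and 0 of 4 genes passing by limma. Nup62cl, Nup214 and Nup62 are high in control 2-cell embryos too, and so are Ipo8 and Kpna3, which did not pass in KD blastocysts. Ipo5, Ipo11, Ipo4, Ipo7 and Xpot, also higher in KD blastocysts, had higher mean FPKM in control morulae than in control 2-cell embryos. Sums of the 4 markers of 2-cell embryos were 2.76 to 13.1 FPKM in KD and 0.0826 to 0.899 in control blastocysts. Zfp352, the gene of that list tested, was higher (1.56, adjusted p = 0.00157) and reached the filter of 1 FPKM in KD libraries alone. Hba-a1 was higher as well (0.79, adjusted p = 0.00985), at 2.09 to 3.71 against 0.599 to 1.79 FPKM. Leaving out KD blastocyst replicate 5 gave 5 members higher and 3 changes above 1 log2 unit, against 9 and 5 with all libraries. The part of the cell types in the results on importins and pore genes was not tested.

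Whether the KD effect differed between morulae and blastocysts was tested as an interaction. Of 37 members tested 1 passed, or 2.7%, beside 11.7% of all 12727 genes, and 6 had an unadjusted p under 0.05, as did 3480 of all genes. Ipo5 was that gene, with an effect in blastocysts larger than in morulae by 0.86 (SE 0.24, adjusted p = 0.0295). Its call was lost without control morula replicate 1 or 8, KD morula replicate 1 or 2, or control blastocyst replicate 1 or 4 (adjusted p between 0.0510 and 0.0857), and with no filter on low values (adjusted p = 0.0698), while 2 members passed without control blastocyst replicate 5 or KD blastocyst replicate 1 or 4. The KD effects of Nup62cl, 1.62 in morulae and 1.58 in blastocysts, were not shown to differ. Those of Nup214, Nup62 and Xpo6, which passed in blastocysts and not in morulae, were not shown to differ between the stages either.

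Genes of the same pathways under other names gave the wider setting in KD blastocysts, where 16.7% of all genes were higher and 19.8% lower. Rcc1 and Ranbp3 are above 1 log2 unit, and the other names here were chosen after their values were seen. Of 13 further pore genes tested, 5 rose and 0 fell by limma: Rae1 (0.84) and Gle1 (0.64), which act in messenger RNA export with Nup98 and Nup214, Pom121 (0.78), a membrane protein of the pore, Seh1l (0.62), a partner of Nup85, and Ranbp2 (0.58), the SUMO ligase of the cytoplasmic filaments. Of 7 genes of the Ran cycle, 3 rose and 1 fell. Rcc1, the nuclear exchange factor that loads Ran, had 8.19 to 23.1 FPKM in KD and 3.72 to 6.97 in control blastocysts, without overlap (1.08, SE 0.24, adjusted p = 0.00456). Ranbp3, a cofactor of Xpo1, had 4.32 to 7.84 against 0.791 to 4.90 FPKM, overlapping (1.01, SE 0.28, adjusted p = 0.0153). Rangap1 rose by 0.69 and Rangrf changed by -0.89. Among 6 receptors with other names Tnpo2 rose (0.58), among 17 messenger RNA export genes Thoc3 rose (0.99) while Thoc6 (-0.84) and Alyref2 (-0.64) fell, and among 8 lamina and envelope genes Emd (0.93) and Sun1 (0.90) rose.

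At the other steps these outside lists can be set beside the members. In KD morulae Nxt2 (-0.74) and Ddx19a (-0.57), named after their values were seen, of 16 messenger RNA export genes fell, and by limma 0 of 13 pore genes, 0 of 6 receptors, 0 of 7 Ran cycle genes and 0 of 8 lamina genes passed. Of all genes, 4.23% were higher and 9.04% lower there. In KD 2-cell embryos none of the lists held a gene that passed. From control 2-cell embryos to control morulae, 6 of 7 Ran cycle genes rose, with Ranbp1 at 3.64, Ran at 2.30, Nutf2 at 2.09, Rangrf at 2.05, Rcc1 at 1.47 and Rangap1 at 1.17, while pore genes with other names split into 7 higher, led by Sec13 (2.69), and 6 lower, led by Ahctf1 (-2.08), of 13. At that step 2 of 6 receptors were higher and 3 lower, 6 of 17 messenger RNA export genes higher and 8 lower, and 3 of 8 lamina genes higher and 2 lower, beside 43% and 40.3% of all genes. From control morulae to control blastocysts, 0 of 13 pore genes were higher and 6 lower by limma, 0 of 6 receptors higher and 4 lower, 1 of 7 Ran cycle genes higher and 3 lower, 2 of 17 messenger RNA export genes higher and 5 lower, and 2 of 8 lamina genes higher and 3 lower, beside 27.6% and 28.8% of all genes.

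Promoter sequences from RefSeq (GRCm38.p6) were available for 32 of the 41 members, as 37 promoters of 250 bases before the start. Members held a median of 22 CG dinucleotides in this window, beside 6 in all 32851 promoters. The latter were not matched to the members by expression level, so a difference may not be particular to these genes. Some member windows overlap, as those of Ipo9 and of Nup37 do. The motif CCAAT, on either strand, was in 54.1% of the member promoters and 33.8% of all, GGGCGG, on either strand, in 64.9% and 32.7%, and CACGTG in 13.5% and 6.02%. The promoters of 3 members are printed: Nup62cl, which was higher in KD morulae and blastocysts, Ipo5, which was higher in KD blastocysts, and Kpna7, which exceeded 1 FPKM at the 2-cell stage only. Capitals mark CCAAT and GGGCGG on either strand, and a match describes the letters and not a bound site. The Nup62cl stretch is shortened to the 106 bases outside annotated exons, chrX:140062713-140062818 on the minus strand, with 5 CG dinucleotides. The Ipo5 stretch is chr14:120910944-120911193 on the plus strand, with 42 CG dinucleotides, while another Ipo5 promoter, chr14:120915597-120915846, holds 0 CG dinucleotides and no match. The Kpna7 stretch is chr5:145009637-145009886 on the minus strand, inside the annotated gene, with 3.
Nup62cl: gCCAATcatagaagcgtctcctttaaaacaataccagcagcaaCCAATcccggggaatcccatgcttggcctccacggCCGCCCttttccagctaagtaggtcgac
Ipo5: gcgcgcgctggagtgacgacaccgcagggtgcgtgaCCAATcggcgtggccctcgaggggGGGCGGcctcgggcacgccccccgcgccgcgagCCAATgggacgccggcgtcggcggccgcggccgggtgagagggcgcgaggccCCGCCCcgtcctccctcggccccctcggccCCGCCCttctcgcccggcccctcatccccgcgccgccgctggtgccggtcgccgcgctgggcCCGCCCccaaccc
Kpna7: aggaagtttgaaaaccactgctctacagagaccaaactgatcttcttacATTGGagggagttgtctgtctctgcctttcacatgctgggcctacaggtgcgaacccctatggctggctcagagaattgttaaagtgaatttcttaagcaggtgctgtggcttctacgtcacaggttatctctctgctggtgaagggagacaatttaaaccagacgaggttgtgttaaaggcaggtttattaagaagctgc
The Ipo5 stretch held 2 matches of CCAAT and 4 of GGGCGG, the shorter Nup62cl stretch 2 and 1, and the Kpna7 stretch 1 and 0.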

How the data were processed

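Polyadenylated RNA of control and KD embryos was sequenced by the authors with Smart-seq2, unstranded, in 22 libraries. The authors aligned reads to mm10 with STAR and deposited FPKM per gene from StringTie 2.1.4. The deposited FPKM are not counts, so limma 3.58.1 (lmFit, eBayes with trend; R 4.3.3) was run on log2(scaled FPKM + 1). FPKM were divided by 1 factor per library, the median of ratios within the comparison. Tested were genes that reached an FPKM of 1 in 3 or more libraries of the comparison, with Benjamini-Hochberg adjustment over all of them. An adjusted p under 0.05 counts as passed. Differences above 1 log2 unit are counted apart. KD was compared with control at each stage, control stages with each other, and the KD effect between morulae and blastocysts as an interaction. H2afz and H2afv were tested by exact two-sided permutation of libraries.

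The members and the lists were chosen with earlier results of these data known. Named with all library values were, per KD and stage comparison, at most the 8 members with the largest changes above 1 log2 unit, the 5 most abundant members, every Kpna gene, H2afz and H2afv. The values of Xpot, Ipo11 and Ipo4 in KD 2-cell embryos are left out. From the lists of other pore proteins, receptors, Ran cycle, messenger RNA export and lamina genes, the rule named at most 6 genes per KD comparison with changes above 1 log2 unit, and other genes of these lists are named after their values were seen. Alternatives were a pseudocount of 0.1, FPKM as deposited, no filter on low values, a replicate block, a term for the range of replicate numbers, and leaving out each library. The replicate block gives each replicate number its own term. For KD against control morulae and for control morulae against 2-cell embryos it leaves almost no residual freedom. Its p there lean on spread borrowed from other genes. Fits of control morulae against 2-cell embryos within replicate numbers 1 and 2, or above 2, were chosen after seeing the data.

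Absolute depth is not in the files; relative depth, read from the steps between low FPKM of single-exon genes, lay between 14.8 and 28.7. Reads from near copies and overlapping genes are assigned with uncertainty. Shared sequence was counted as 50-base stretches found in transcripts of other genes. Tables and figures were made with Python 3.11.15, pandas 2.3.3, numpy 2.4.6 and matplotlib 3.10.9, and the fit was tested on simulated data. Members under the filter were left out of the tests.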

Additional observations from a re-analysis of the deposited data

Results flagged for a closer look

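Of 146 pairs of a gene and a group of 4 libraries tested, 10 held a library far from the other 3. Chance gives this in about 1 in 20 pairs if values are normal and pairs independent. Genes of the same library are not independent, so the count cannot be judged by that rate. In control 2-cell embryos, replicate 1 was low for Nup155 (3.67 FPKM, others 5.01 to 5.26). In control morulae, replicate 1 was high for Nup50 (15.6 FPKM, others 12.2 to 12.7), for Xpo4 (9.32 FPKM, others 6.36 to 6.61) and for Nup133 (10.3 FPKM, others 7.21 to 7.67), and low for Nup43 (140 FPKM, others 179 to 186). In control blastocysts, replicate 5 was high for Nup35 (127 FPKM, others 80.2 to 81.5) and replicate 1 low for Nup160 (3.29 FPKM, others 3.97 to 4.09). In KD blastocysts, replicate 5 was high for Kpnb1 (31.3 FPKM, others 16.2 to 18.6) and for Nup153 (9.58 FPKM, others 5.11 to 5.86), and low for Kpna2 (321 FPKM, others 515 to 538).

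The KD effect in blastocysts differed from that in morulae in limma's interaction test for 5 genes: 1 of 37 members tested, 2 of 7 Ran cycle genes, 1 of 17 messenger RNA export genes and 1 of 8 lamina genes, with 0 of 13 other pore genes and 0 of 6 other receptors, beside 11.7% of all 12727 genes. The difference, blastocysts minus morulae on the log2 scale, was 0.86 for Ipo5 (SE 0.24, adjusted p = 0.0295), 0.97 for Thoc3 (SE 0.24, adjusted p = 0.0158), 1.27 for Rcc1 (SE 0.40, adjusted p = 0.0478), 1.05 for Sun1 (SE 0.32, adjusted p = 0.0439) and -0.84 for Nutf2 (SE 0.25, adjusted p = 0.0402).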

How the results depend on the processing

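Between KD and control 2-cell embryos, 0 members passed in limma under every alternative run, the replicate block included. In KD morulae, the count of higher members went from 1 to 0 with no filter on low values, to 2 with the replicate block and to 3 with a term for the range of replicate numbers; that of lower members from 0 to 2 with FPKM as deposited and to between 0 and 1 leaving out libraries; that of changes above 1 log2 unit from 1 to 0 with no filter. In KD blastocysts, 9 higher members became 4 with no filter and 5 to 9 leaving out libraries, 0 lower became 1 with FPKM as deposited, and 5 changes above 1 log2 unit became 2 with no filter and 3 to 5 leaving out libraries. From control morulae to blastocysts, 0 higher members became 0 to 2 leaving out libraries, and 5 changes above 1 log2 unit became 8 with a pseudocount of 0.1. For the interaction, 1 member became 2 with FPKM as deposited, 0 with no filter and 0 to 2 leaving out libraries, and changes above 1 log2 unit went from 0 to 2 with FPKM as deposited and to between 0 and 1 leaving out libraries. From control 2-cell embryos to morulae, 16 higher and 15 lower members were 13 and 15 with the replicate block, 14 and 12 within replicate numbers 1 and 2, 14 and 12 within numbers above 2 (both chosen after seeing the data), and 12 to 17 and 14 to 15 leaving out libraries. Within either range of numbers Kpna7 and Nup210l could not meet the filter, as they stayed under 1 FPKM in morulae. H2afz differences were -2.60, -5.53 and -5.20 with FPKM as deposited. Calls of the members that passed kept their direction in all alternatives run and their side of the threshold in 66 of 66 with the pseudocount of 0.1, 57 of 66 with FPKM as deposited, 51 of 66 with no filter and 37 of 41 with the replicate block. Libraries with the same replicate number at a stage had residual correlations across genes, which are not independent replicates, between 0.0146 and 0.214 in 2-cell embryos, 0.0944 and 0.181 in morulae and -0.111 and 0.354 in blastocysts. Pairs with different numbers reached 0.205, 0.347 and 0.401 at these stages. Control morulae and control 2-cell embryos with the same number had correlations of -0.0465 and 0.0353. The cause was not tested for any of these changes. With 3 or 4 pools per group, small differences may have been missed.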
